A study of Mus musculus with 16 samples.

Results

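The gastrocnemius of the calf and the triceps of the upper arm were compared in control mice: 8 arrays, 4 of each muscle, out of 16 arrays in the study. The arrays were chosen by their labels alone, as all gastrocnemius and triceps arrays of non-transgenic (NTg) mice, and the muscles were paired by the mouse number that both carry. These 4 mice were 7-week-old C57BL/6 females without a transgene or treatment, and each array held whole-muscle RNA from 1 muscle. The other 8 arrays held the same muscles of 4 SOD1-G93A mice, which are C57BL/6 females of the same age that carry mutant human SOD1. The SOD1-G93A mice served here to look at the same muscle difference in other animals. The labels do not say which heads of either muscle were taken, or how neighbouring muscles were trimmed away.

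Mouse limb muscles are mosaics of slow fibres, which contract slowly and rely on oxidative metabolism, and several kinds of fast fibre, which contract quickly and rely more on glycolysis. Each kind makes its own version of myosin, troponin, tropomyosin and the calcium pump, so that the transcripts of these proteins read out the fibre makeup of a muscle. In whole-muscle RNA, fewer fibres of a kind and less RNA per fibre cannot be told apart. The study itself was set up around muscle before symptoms in the SOD1-G93A line, and its control mice give the difference between 2 healthy limb muscles.

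Signals are given on the log2 scale, as differences of gastrocnemius minus triceps, so that 1 is a doubling. Of 7729 probe sets in the table used here, 4637 had a mean above 6.75 over all 16 arrays and were tested with limma, with the mouse as a block. Called means an adjusted p under 0.05, by the Benjamini-Hochberg method over all 4637. The arrays read as skeletal muscle, since 12 of 13 muscle fibre markers had a probe set and all 12 were above 6.75 on every NTg array. These markers do not check which of the 2 muscles an array holds, since they were above that level in both. The triceps arrays of mice 1 and 2 stood apart, with correlations of 0.856 to 0.933 with the other triceps arrays, against 0.964 between those of mice 3 and 4, and 0.964 to 0.98 among the gastrocnemius arrays. Ckm, the muscle creatine kinase, had signals of 12.84 and 13.02 on those 2 arrays, against 14.42 and 14.21 in triceps of mice 3 and 4. Values without these 2 arrays, in a fit that then has no block, are given beside the results that they move most.

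The largest differences between gastrocnemius and triceps were in genes of slow fibres, which were higher in gastrocnemius. Of the tested probe sets, 47 (1.01%) were called, 41 of them higher (0.884%) and 6 lower (0.129%) in gastrocnemius. They represent 36 genes, 30 higher and 6 lower. Of the 36, 15 are on the slow fibre list, which was drawn up with earlier results of these data known. Before adjustment the directions were closer, with 383 higher and 285 lower at a p under 0.05. All 47 had the same sign in 4 of 4 mice, and 39 of the higher and 4 of the lower ones did not overlap between the muscles. Over all tested probe sets, 179 (3.86%) lay without overlap higher and 131 (2.83%) lower. Among the called, 9 genes differed by more than 8-fold, all higher in gastrocnemius, and all 9 belong to the slow fibre list. Without triceps of mice 1 and 2, and so without the block, all 47 kept their sign and 41 were still called. The 47 were called from these same arrays, so the counts of signs and of overlap among them are a description and carry no test. The count of lower calls rests on single mice, with 1 left without mouse 1 and 2 without mouse 4, but 8 without mouse 2 and 7 without mouse 3.

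**Figure D1:**
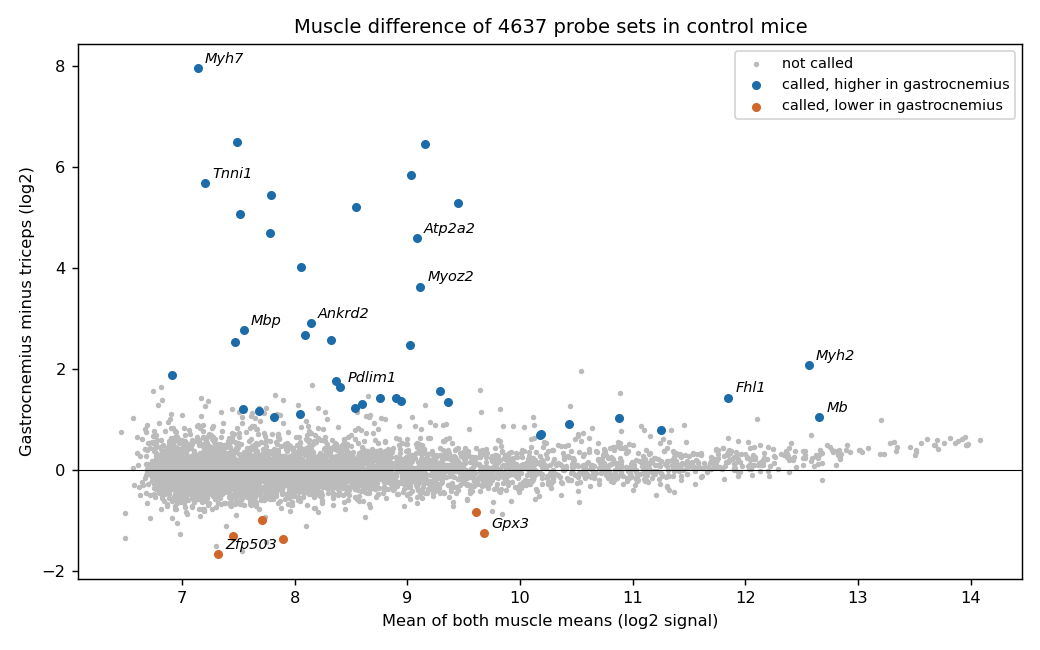
Difference between gastrocnemius and triceps (log2, vertical axis) against the mean of both muscle means (log2 signal, horizontal axis) for the 4637 tested probe sets of control mice; blue points were called higher, orange points lower and grey points were not called. The called points reach 7.95 above 0 but only 1.68 below it.

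The slow contractile proteins formed the largest differences. The slow fibre list held 20 genes, of which 16 had a probe set and 15 were tested. All 15 tested genes rose, with a median difference of 4.58 against 0.01 over all tested probe sets. As the list was drawn up with earlier results of these data known, these values are a description and carry no test. Myh7, Tnnt1, Tnni1, Tnnc1 and both called Tpm3 probe sets had triceps means below the filter level in both genotypes. They passed the filter through their gastrocnemius signals, as did 1 Myl3 probe set (difference 5.43) and the second called Atp2a2 probe set (4.02). Myh7, the slow and cardiac myosin heavy chain that is the motor of type I fibres, had signals of 11.33, 11.25, 11.11 and 10.78 in gastrocnemius of mice 1 to 4, and of 1.30, 2.40, 6.28 and 2.67 in triceps. Every gastrocnemius array was thus far above every triceps array, and all 4 triceps signals lay below the filter level of 6.75, where signals scatter widely. The difference was 7.95 (SE 0.67, adjusted p = 0.000349), or 248-fold. On the scale log2(signal + 16), which damps low signals, it was 6.21, so the size of this fold depends on triceps values close to the bottom of the range. The difference was 6.64 without triceps of mice 1 and 2. A second probe set, which matches both Myh7 and Myh6, fell below the filter in the mean over all arrays and differed by 6.44.

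The light chains that sit on this myosin showed the same order. Myl2, the slow regulatory light chain, had 12.82, 12.45, 11.99 and 12.29 in gastrocnemius and 5.37, 3.72, 7.89 and 6.75 in triceps. The triceps of mice 3 and 4 had the higher signals of this gene, and the difference was 8.09 in mice 1 and 2 against 4.82 in mice 3 and 4. Over all 4 mice it was 6.45 (SE 0.61, adjusted p = 0.000652), and 5.06 without triceps of mice 1 and 2. Myl3, the slow essential light chain, was measured by 3 probe sets, which differed by 5.83, 5.43 and 5.29 and were all called. Myl12a, a light chain of non-muscle myosin, differed by 0.68 (SE 0.12, adjusted p = 0.0318), the smallest difference of the list, and was not called without mouse 1, 3 or 4 (adjusted p = 0.185, 0.126 and 0.19), although the difference was then 0.70, 0.72 and 0.64.

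The 3 slow troponin subunits, which turn the thin filament on when calcium is released, rose together. Tnni1, the inhibitory subunit, had 10.45, 10.22, 9.73 and 9.78 in gastrocnemius and 5.12, 4.19, 5.22 and 2.92 in triceps. The muscles did not overlap, and the difference was 5.68 (SE 0.34, adjusted p = 3.12e-05), with 5.33, 6.02, 4.51 and 6.86 in the single mice. All 4 triceps signals lay below the filter level, and on the scale log2(signal + 16) the difference was 4.80. Tnnt1, the tropomyosin-binding subunit, differed by 6.49 (SE 0.64, adjusted p = 0.000971), with a triceps range of 1.41 to 5.86 and a difference of 5.14 without triceps of mice 1 and 2. Tnnc1, the calcium-binding subunit of slow and cardiac muscle, differed by 5.22 (SE 0.27, adjusted p = 1.21e-05). Tpm3, the slow tropomyosin, differed by 5.06 and 4.68 on 2 called probe sets, while the other gave 0.46 (adjusted p = 0.312). The tropomyosin gene makes muscle and non-muscle transcripts, and the files do not say which of them each probe set reads.

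**Figure D2:**
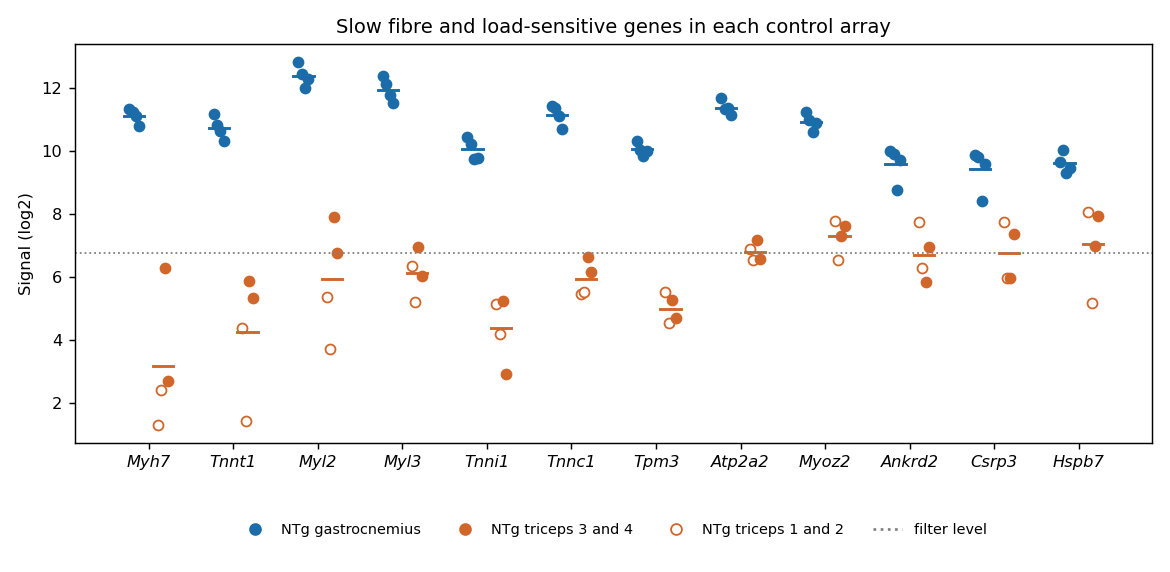
Signal (log2, vertical axis) of 12 called genes on each control array, gastrocnemius in blue and triceps in orange, with open circles for triceps of mice 1 and 2, a short line for each muscle's mean and a dotted line at the filter level of 6.75. Gastrocnemius lies above triceps for all 12 genes, and the triceps points of Myh7 run from 1.30 to 6.28.

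The promoters of the 6 genes for the slow myosin subunits and slow troponins are shown since these genes moved together over the 2 muscles. Each run is the 250 bases before the start of the gene on its own strand in the RefSeq annotation of GRCm38.p6, and capitals mark 3 motifs searched on both strands: the E-box CANNTG of myogenic factors, the M-CAT motif CATTCC of TEAD factors, and the CCACCC box. Myh7, Myl2 and Tnni1 have 2 annotated starts each, of which the one furthest upstream was taken. Which start these muscles use was not tested. Myh7 lies at chr14:54994627-54994876 and Tnnt1 at chr7:4515976-4516225, both on the minus strand. On the plus strand, Myl2 lies at chr5:122092474-122092723, Myl3 at chr9:110763428-110763677, Tnni1 at chr1:135799171-135799420 and Tnnc1 at chr14:31208062-31208311.
Myh7: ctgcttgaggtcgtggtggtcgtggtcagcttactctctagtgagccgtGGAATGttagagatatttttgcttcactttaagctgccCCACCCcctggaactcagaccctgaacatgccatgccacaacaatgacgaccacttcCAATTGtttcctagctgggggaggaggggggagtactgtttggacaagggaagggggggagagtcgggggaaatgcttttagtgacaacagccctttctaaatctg
Myl2: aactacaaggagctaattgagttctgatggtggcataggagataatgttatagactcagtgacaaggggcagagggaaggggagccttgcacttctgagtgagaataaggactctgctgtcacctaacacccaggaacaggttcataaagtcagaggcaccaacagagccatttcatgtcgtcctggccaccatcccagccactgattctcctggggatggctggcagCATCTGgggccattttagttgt
Myl3: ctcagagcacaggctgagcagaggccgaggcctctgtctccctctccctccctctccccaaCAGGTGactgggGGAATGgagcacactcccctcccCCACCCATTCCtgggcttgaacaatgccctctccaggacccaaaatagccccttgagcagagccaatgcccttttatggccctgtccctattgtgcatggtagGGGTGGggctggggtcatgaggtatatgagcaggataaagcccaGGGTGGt
Tnnt1: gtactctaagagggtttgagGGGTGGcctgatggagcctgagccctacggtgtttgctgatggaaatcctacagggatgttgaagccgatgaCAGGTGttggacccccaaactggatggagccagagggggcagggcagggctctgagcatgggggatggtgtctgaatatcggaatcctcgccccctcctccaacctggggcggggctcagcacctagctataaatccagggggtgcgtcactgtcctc
Tnni1: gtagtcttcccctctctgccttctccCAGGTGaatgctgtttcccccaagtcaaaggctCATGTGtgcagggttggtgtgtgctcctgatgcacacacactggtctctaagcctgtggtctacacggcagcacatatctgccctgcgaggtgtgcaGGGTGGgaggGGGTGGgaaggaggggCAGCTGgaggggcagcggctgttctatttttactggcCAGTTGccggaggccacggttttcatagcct
Tnnc1: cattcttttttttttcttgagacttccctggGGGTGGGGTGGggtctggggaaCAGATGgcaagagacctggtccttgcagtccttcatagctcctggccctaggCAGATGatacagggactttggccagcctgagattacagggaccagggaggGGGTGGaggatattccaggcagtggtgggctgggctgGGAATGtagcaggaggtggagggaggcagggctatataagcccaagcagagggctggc
In the order printed, the windows hold 1, 1, 1, 1, 4 and 2 E-boxes, 1, 0, 2, 0, 0 and 1 M-CAT motifs, and 1, 0, 3, 1, 2 and 3 CCACCC boxes. In Myl3 1 base of an M-CAT motif overlaps a CCACCC box, and in Tnnc1 2 CCACCC boxes share 1 base. Of 32851 promoter windows of the same length, 66.2% hold an E-box, 12.6% an M-CAT motif and 28.1% a CCACCC box. Of the 2514 tested genes with a promoter in the table, called ones included, the shares were 56%, 11.1% and 32.2%. Of the 30 genes called higher, 25 had a promoter, and 20 (80%), 4 (16%) and 11 (44%) of them held these motifs. The MEF2 consensus and the CArG box were also searched and are not capitalised. They were in 2 and 3 of the 25 windows (8% and 12%), against 1.83% and 1.67% of the tested genes, and of the 6 promoters printed 1, Myl3, held a CArG box and 0 held the MEF2 consensus. A match is a description of the letters only.

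Calcium handling and the Z-disc, the anchor of the thin filaments that also senses stretch, followed the slow fibre pattern in their slow forms. Atp2a2, the slow and cardiac calcium pump of the sarcoplasmic reticulum, had 11.67, 11.32, 11.37 and 11.12 in gastrocnemius and 6.89, 6.53, 7.18 and 6.57 in triceps. The spread within each muscle was small beside the gap, and the difference was 4.58 (SE 0.15, adjusted p = 1.01e-06), the smallest p of all tested probe sets. A second probe set of the gene gave 4.02 and was called, and another gave 0.93 (adjusted p = 0.104). Casq2, the slow and cardiac calcium store protein, differed by 1.05 (SE 0.18, adjusted p = 0.0247). Casq2 was not called without mouse 1, 3 or 4 (adjusted p = 0.22, 0.0681 and 0.0867), with differences of 1.03, 1.14 and 1.10. Sln, a small peptide that inhibits the pump, was below the filter, at a mean of 7.33 in gastrocnemius and 3.38 in triceps. A separate list of calcium handling and excitability genes does not hold Atp2a2 and Casq2, which are on the slow fibre list. It had 25 tested members, of which 0 were called and 15 lay above 0. Over all 3034 tested genes, 1572 lay above 0. The list's median was 0.03, and -0.17 without triceps of mice 1 and 2. Each list takes the brightest probe set of a gene, and on that basis Atp1b1, a sodium pump subunit, came nearest at 0.64 (adjusted p = 0.0974). Another Atp1b1 probe set differed by 1.38 (adjusted p = 0.086).

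Of 12 tested Z-disc and stretch-response genes, 4 were called, all higher and all also members of the slow fibre list: Myoz2, Ankrd2, Csrp3 and Fhl1. Their list's median was 0.47, and 0.28 without triceps of mice 1 and 2. Myoz2, a calcineurin-binding protein of slow fibre Z-discs, differed by 3.62 (SE 0.21, adjusted p = 2.43e-05). Ankrd2, a stretch-responsive ankyrin repeat protein, had 10.00, 9.89, 8.77 and 9.70 in gastrocnemius against 7.74, 6.26, 5.82 and 6.94 in triceps. Mouse 3 was low in both muscles, and the within-mouse difference was 2.90 (SE 0.22, adjusted p = 0.000172). Csrp3, the muscle LIM protein, differed by 2.67 (SE 0.27), and mouse 3 was again the lowest in gastrocnemius. Fhl1, another LIM protein, differed by 1.43 (SE 0.16). Outside these lists, the LIM domain genes Pdlim1 and Lmcd1 were called at 1.63 and 1.37. Hspb7, a small heat shock protein of heart and muscle, was called at 2.57 and 2.48 on 2 probe sets, as the 1 called gene of 25 tested heat shock and chaperone genes, whose median was -0.02. Among 19 tested filament genes shared by all fibres, Lmod2, which assembles thin filaments, rose by 1.31 (SE 0.17) and Actn2, the Z-disc actinin, by 0.90 (SE 0.14), and the other 17 were not called. That list's median was 0.35, and -0.06 without triceps of mice 1 and 2. Actn2 was not called without mouse 1 or 3 (adjusted p = 0.13 and 0.112), with differences of 0.94 and 0.79. The Hspb7 probe set at 2.57 was not called without mouse 1, 3 or 4 (0.188, 0.109 and 0.0507), with differences of 2.90, 2.65 and 2.91.

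No tested fast fibre gene was called lower in gastrocnemius. All 18 tested fast fibre genes lay above 0, against 1572 of all 3034 tested genes, with a median of 0.48, but 1 was called. That gene was Myh2, the myosin of type IIA fibres, which are fast and oxidative. Its signals were 13.53, 13.50, 13.67 and 13.69 in gastrocnemius and 12.06, 10.71, 11.02 and 12.33 in triceps. Gastrocnemius arrays were nearly alike and triceps ones were spread widely below them, and the difference was 2.07 (SE 0.25, adjusted p = 0.00338), 4.20-fold. It was 2.13 in mice 1 and 2 and 2.01 in mice 3 and 4.

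Myh1 and Myh4, the myosins of the faster IIX and IIB fibres, did not pass the test. Myh1 had 12.59 to 13.11 in gastrocnemius and 12.46 to 13.02 in triceps, which overlap almost fully, and differed by 0.09 (SE 0.13, adjusted p = 0.76). Myh4 differed by 0.57 (SE 0.22, adjusted p = 0.294). Signals of Myh4 in triceps were 12.87 and 13.07 in mice 1 and 2 and 14.32 and 14.14 in mice 3 and 4, against 13.98 to 14.49 in gastrocnemius. The median over the 18 fast genes was 0.87 in mice 1 and 2 and 0.08 in mice 3 and 4, and it was below 0, at -0.11, without triceps of mice 1 and 2. Acta1, the actin of all muscle fibres, and Ckm lay with the fast genes on these 2 arrays, and both turned from above 0 (0.64 and 0.61) to -0.10 and -0.08 without them. The slow fibre median was 4.79 in mice 1 and 2, 4.13 in mice 3 and 4 and 4.43 without those 2 arrays. What sets the 2 arrays apart was not tested.

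**Figure D3:**
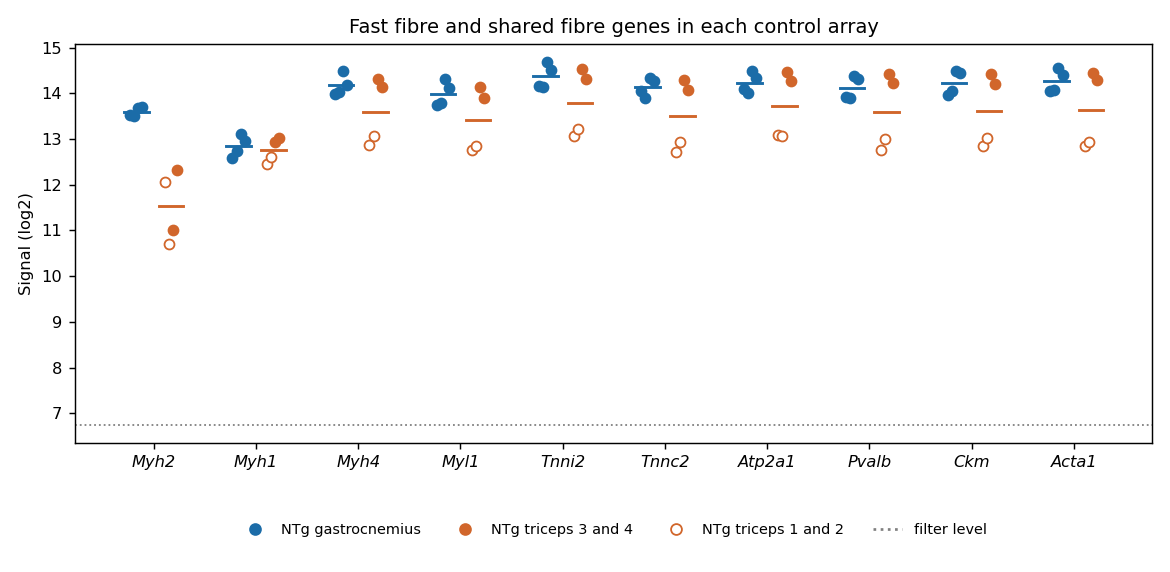
Signal (log2, vertical axis) of 10 fast fibre or shared fibre genes on each control array, gastrocnemius in blue and triceps in orange, with open circles for triceps of mice 1 and 2, short lines for muscle means and a dotted line at the filter level. Myh2 is the one gene with a clear gap, while for 7 of the others, from Myh4 to Ckm, the open circles near 13 lie below filled circles that reach the gastrocnemius range, as they do for Acta1.

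Myelin transcripts were higher in gastrocnemius, beside the fibre genes. Mbp, myelin basic protein, had 8.96, 8.69, 9.05 and 9.03 in gastrocnemius and 6.84, 6.32, 5.63 and 5.87 in triceps. The muscles did not overlap, and the difference was 2.77 (SE 0.24, adjusted p = 0.000447), or 6.81-fold. Of the same gene, 2 more probe sets were called, at 2.53 and 1.88. All called Mbp probe sets had triceps means below the filter level in both genotypes, and passed the filter through their gastrocnemius signals. On the scale log2(signal + 16) the difference of 2.77 was 2.51, so the size of the fold depends on low triceps signals. Pmp22, a membrane protein of compact peripheral myelin that other tissues also make, had 9.51, 9.27, 9.64 and 9.44 in gastrocnemius and 8.34, 7.98, 8.04 and 7.83 in triceps. Its arrays did not overlap either, and its difference was 1.42 (SE 0.15, adjusted p = 0.00109). Both differences were as large without triceps of mice 1 and 2, at 3.18 and 1.53. The Mbp probe sets at 2.53 and 1.88 then gave 2.01 and 2.03. Mbp and Pmp22 are the 2 genes of an 18-gene Schwann cell and nerve list that had a probe set, so other myelin or axon genes were not analysed here. Their summed linear signal ran from 1030 to 1330 in gastrocnemius and from 286 to 438 in triceps. Whether nerve tissue was taken along with the muscle was not tested.

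Mb, myoglobin, which stores oxygen in muscle and is on the slow fibre list, was higher in gastrocnemius. It had 13.18, 13.19, 13.16 and 13.17 in gastrocnemius and 12.06, 11.85, 12.04 and 12.60 in triceps. Gastrocnemius arrays were almost identical and all above triceps, and the difference was 1.04 (SE 0.16, adjusted p = 0.016). Of 26 tested genes of fatty acid uptake and oxidation, 2 were called, both higher, and the list's median was 0.25. Fabp3, the fatty acid carrier of heart and oxidative muscle, had 11.63, 11.35, 11.07 and 11.52 against 10.72, 9.86, 10.10 and 10.77, again without overlap, and differed by 1.03 (SE 0.15, adjusted p = 0.00955). Lpl, which frees fatty acids from blood lipoproteins, differed by 1.23 and 0.79 on 2 called probe sets. With 1 mouse less, Mb was not called without mouse 1 or 3 (adjusted p = 0.13 and 0.0935, difference 1.01 in both). Fabp3 likewise lost its call (0.0843 and 0.0581, differences 1.07 and 1.05), as did the Lpl probe set at 1.23 without mouse 1 (0.0791, difference 1.30).

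Ldhb, the lactate dehydrogenase subunit that favours lactate use, differed by 1.35 to 1.76 on 4 called probe sets. Those at 1.42 and 1.55 are of a type, marked x in their names, whose probes can bind other transcripts. The probe set at 1.76 was not called in the limma fit without the block (adjusted p = 0.0605). On that probe set gastrocnemius had 9.42, 9.49, 8.66 and 9.43 and triceps 8.13, 8.06, 6.38 and 7.39, with mouse 3 lowest in both muscles. Ldha, the subunit of fast fibres, differed by 0.55 (SE 0.19, adjusted p = 0.289), and by 0.08 without triceps of mice 1 and 2. Of 25 tested genes of glycolysis and glycogen, Ldhb was the one called. The list's median was 0.25, with 0.32 in mice 1 and 2 and 0.09 in mice 3 and 4, and it turned to -0.01 without triceps of mice 1 and 2.

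Genes of the mitochondrial energy chain were not called. The lists held 33 tested genes of respiratory complex I (median 0.12), 45 of complexes II to V (0.24) and 26 of the citric acid cycle and malate shuttle (0.10), with 0 called in each. In that order 25, 40 and 18 of them lay above 0, against 1572 of all 3034 tested genes. The median of complexes II to V was 0.46 in mice 1 and 2, 0.07 in mice 3 and 4 and 0.04 without triceps of mice 1 and 2. Without those arrays the median of complex I was -0.01 and that of the citric acid cycle and malate shuttle 0.02. Sdhc, a membrane subunit of complex II, came nearest at 0.87 (SE 0.17, adjusted p = 0.0604) on its brighter probe set, which can bind other transcripts. That value was 0.38 without triceps of mice 1 and 2, and the other Sdhc probe set gave 0.10 (adjusted p = 0.801). Idh2, a mitochondrial isocitrate dehydrogenase, differed by 1.06 (SE 0.24, adjusted p = 0.104), and by 0.67 without those arrays. Nnt, a proton-driven transhydrogenase of the inner mitochondrial membrane, was called outside these lists at 1.20 (SE 0.22, adjusted p = 0.0422), and its groups overlapped. Nnt was not called without mouse 1, 3 or 4 (adjusted p = 0.289, 0.0539 and 0.123), with differences of 1.19, 1.37 and 1.27. Its difference was 0.59 without triceps of mice 1 and 2 (adjusted p = 0.654). The remaining genes called higher were Homer2, a scaffold protein of muscle and synapses, at 1.17, Ccn2, a secreted matrix-associated protein, at 1.11, and Cdv3 at 0.71. All 3 lost the call with 1 mouse less, at differences close to those with 4 mice. Homer2 had 1.08 and 1.18 without mouse 1 or 4 (adjusted p = 0.254 and 0.106), and Ccn2 had 1.17 and 1.02 without mouse 1 or 3 (0.097 and 0.0623). Cdv3 had 0.61, 0.73 and 0.79 without mouse 1, 3 or 4 (0.288, 0.169 and 0.115). Without triceps of mice 1 and 2 the difference of Ccn2 was 1.93 (0.0623).

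**Figure D4:**
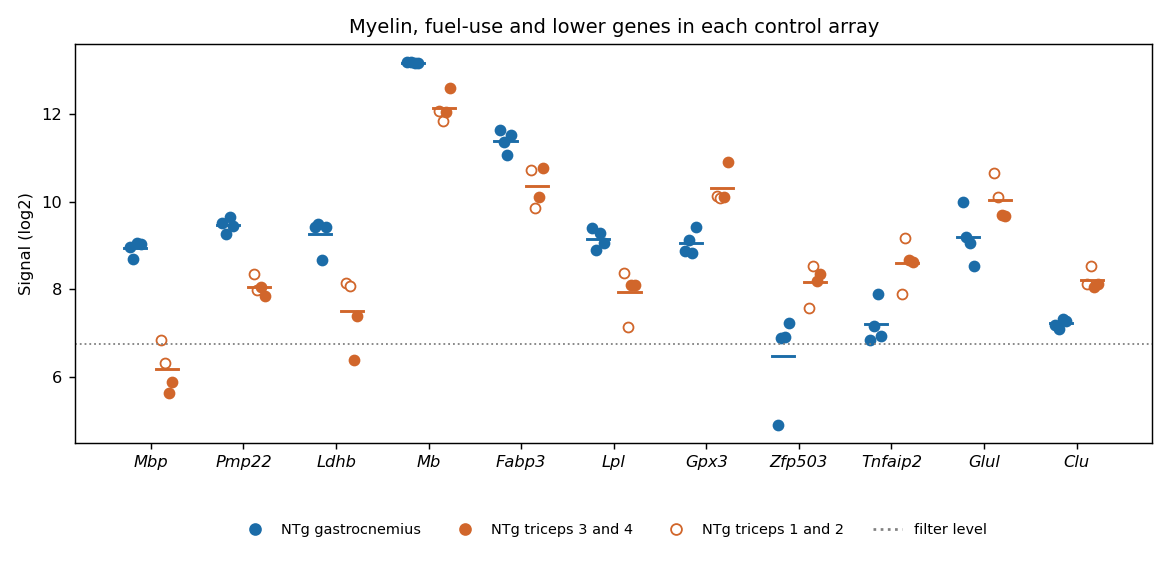
Signal (log2, vertical axis) of myelin, fuel-use and lower genes on each control array, gastrocnemius in blue and triceps in orange, with open circles for triceps of mice 1 and 2, short lines for muscle means and a dotted line at the filter level of 6.75. The first 6 genes, Mbp to Lpl, are higher in gastrocnemius, and the last 5, Gpx3 to Clu, are lower.

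Only 6 genes were called lower in gastrocnemius, against 285 probe sets lower at an unadjusted p under 0.05, and a fit of all 16 arrays called 20 probe sets lower. Gpx3, a secreted glutathione peroxidase that removes peroxides, had 8.87, 9.11, 8.82 and 9.42 in gastrocnemius and 10.13, 10.09, 10.11 and 10.90 in triceps. Every triceps array was above every gastrocnemius array, and the gene fell by 1.25 (SE 0.13, adjusted p = 0.00126). It fell by 1.12 in mice 1 and 2 and by 1.39 in mice 3 and 4. Zfp503, a zinc finger transcriptional repressor, had 4.90, 6.88, 6.90 and 7.23 against 7.56, 8.52, 8.19 and 8.34. Its gastrocnemius mean lay below the filter level, mouse 1 was the lowest in both muscles, and it fell by 1.68 (SE 0.27, adjusted p = 0.0182). It fell by 1.79 without triceps of mice 1 and 2 and by 1.35 without mouse 1 (adjusted p = 0.202 and 0.069), and it also lost its call in the fit of all 8 arrays without the block (0.231).

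Each of the other 4 lower genes was called on 1 probe set, and 3 of them had further probe sets that were not called. Tnfaip2 fell by 1.38 (SE 0.23, adjusted p = 0.0227). Prss23, a secreted serine protease, fell by 1.32 on 1 probe set (adjusted p = 0.0297) and differed by -0.38 on the other, which was not called. Clu, the extracellular chaperone clusterin, fell by 0.99 on 1 probe set (adjusted p = 0.046), while 3 others gave -0.49 to -0.60 and were not called. Glul, glutamine synthetase, fell by 0.83 (adjusted p = 0.0227) on 1 of its 2 probe sets, with -0.23 on the other. The called probe sets of Tnfaip2, Prss23 and Clu are of a type, marked x in their names, whose probes can bind other transcripts. That type makes up 11.5% of the tested probe sets, 9.76% of those called higher, and 6.79% of those higher and 24.9% of those lower at an unadjusted p under 0.05. Its part in the lower calls was not tested. None of these 4 genes kept its call through every set of 3 mice. Tnfaip2 lost it without mouse 1 or 4 (adjusted p = 0.13 and 0.113, differences -1.49 and -1.28), and Prss23 likewise (0.254 and 0.0936, differences -1.12 and -1.35). Glul lost it without mouse 1, 3 or 4 (0.131, 0.0719 and 0.148), at differences of -0.73 to -0.90, and Clu without any 1 mouse (0.0766 to 0.271), at -0.84 to -1.08. Without triceps of mice 1 and 2, Prss23 and Glul differed by -0.72 and -0.48 (adjusted p = 0.37 and 0.65).

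The 9 genes next in p on the lower side, Malat1, Fasn, Ces1d, Mgat4b, Casd1, Cebpd, Hmgn1, Cd24a and Shisa2, were not called, with differences of -0.82 to -1.60 and adjusted p of 0.0537 to 0.104.

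Genes that place a limb along the body were mostly out of reach. Of 32 listed Hox, Tbx and related genes, 3 had a probe set and 1 was tested, Hoxd8, at 0.46 (SE 0.31, adjusted p = 0.50). Hoxa5 and Hoxa9, both below the filter, had differences of -0.57 and -0.84, and their adjusted p in a fit of all 7729 probe sets were 0.606 and 0.287. Sox6, a repressor of slow fibre genes, and Tbx15, a factor of fast glycolytic fibres, had -0.50 (adjusted p = 0.252) and -0.54 (adjusted p = 0.29). Tbx15 was higher in gastrocnemius of mouse 3, by 0.11. Both were named for their small p among 13 tested myogenesis and muscle transcription factor genes. Of these 13, 0 were called and 8 lay above 0, against 1572 of all 3034 tested genes, with a median of 0.03. Next in p was Myf6, at 0.40 (adjusted p = 0.397).

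Markers of other cells in the muscle were not called apart from myelin. Of 33 tested extracellular matrix genes 0 were called, although 31 lay above 0, against 1572 of all 3034 tested genes, with a median of 0.32. That median was 0.69 in mice 1 and 2, 0.06 in mice 3 and 4, 0.20 without triceps of mice 1 and 2, and 0.02 in SOD1-G93A mice. Col1a1, the main chain of type I collagen, had 8.02 and 8.09 in triceps of mice 1 and 2, 9.78 and 9.50 in mice 3 and 4, and 9.77 to 11.03 in gastrocnemius, and its difference of 1.59 was not called (SE 0.41, adjusted p = 0.172) and was 0.80 without triceps of mice 1 and 2. The tendon (4 tested, median 0.49), endothelium (7, 0.27), smooth muscle and pericyte (7, 0.21), adipocyte (10, 0.07) and immune cell (5, -0.12) lists also had 0 called. These medians were 0.34, 0.15, 0.21, -0.06 and -0.28 without triceps of mice 1 and 2. Fasn, the fatty acid synthase of fat and liver, lay lower in gastrocnemius at -1.36 (SE 0.26, adjusted p = 0.0571) and missed the threshold. Its difference was -0.96 (0.502) without triceps of mice 1 and 2. Summed linear signals of the adipocyte list were 17800 to 24100 in gastrocnemius and 12500 to 19200 in triceps, and overlapped. Car3 on that list, with log2 means of 13.83 in gastrocnemius and 13.30 in triceps, gave most of these sums, so they mainly follow this gene. Car3 differed by 0.53 (adjusted p = 0.262), while Thrsp on its brighter probe set had -0.67 (0.177), and 6 of the 10 genes lay above 0. Lists of genes that every cell uses had 0 called and small medians, with 39 tested cytosolic ribosomal proteins at 0.12, 52 mitochondrial ribosomal proteins at 0.08, 33 proteasome genes at 0.04 and 36 splicing genes at -0.04. The immediate early and stress genes (17 tested, median -0.26) and circadian clock genes (8 tested, -0.11) had 0 called as well. Without triceps of mice 1 and 2 the first of these medians turned to 0.23 and the second was -0.28, and the splicing median turned to 0.11.

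The same contrast in SOD1-G93A mice, which shares no animal with the control mice, gave 71 calls of 4637 (1.53%), 50 higher (1.08%) and 21 lower (0.453%). Without its mouse 1, 3 or 4 the lower calls were 9, 10 and 10, and without its mouse 1 or 3 the higher calls were 31. All 47 probe sets called in control mice had the same sign there. Of them 41 were called in both, which is 87.2% of the calls in control mice and 57.7% of those in SOD1-G93A mice. The slow fibre median was 3.46 in SOD1-G93A mice. Myh7 differed by 5.87 there, Tnni1 by 5.47, Atp2a2 by 3.46, Myh2 by 1.36 (adjusted p = 0.0633), Mbp by 1.92 and Gpx3 by -1.27.

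Of the 41 probe sets called higher in control mice, 37 had a larger difference there than in SOD1-G93A mice. These probe sets were chosen by their values in control mice, so the count is a description and carries no test. In SOD1-G93A mice many slow fibre genes were highest in triceps of mouse 4. Atp2a2 had 6.71, 6.61, 7.86 and 9.37 in triceps of mice 1 to 4, and Tnni1 had 2.73, 3.40, 3.32 and 7.60. In gastrocnemius, mouse 1 was the lowest for both genes, at 10.45 and 8.93. Ankrd2, Casq2, Csrp3 and Fhl1 were instead highest in mouse 3. What sets the triceps array of mouse 4 apart, and its part in the smaller differences, was not tested. The test of the difference itself, a muscle by genotype interaction in limma over all 16 arrays, gave 0 calls in 4637 (0%), a smallest adjusted p of 0.998 and 150 probe sets whose p before adjustment was under 0.05. Across all 4637 probe sets the 2 differences correlated with r = 0.787, and with r = 0.60 among those not called in control mice. Probe sets are not independent replicates, and all 16 arrays share one platform and processing.

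**Figure D5:**
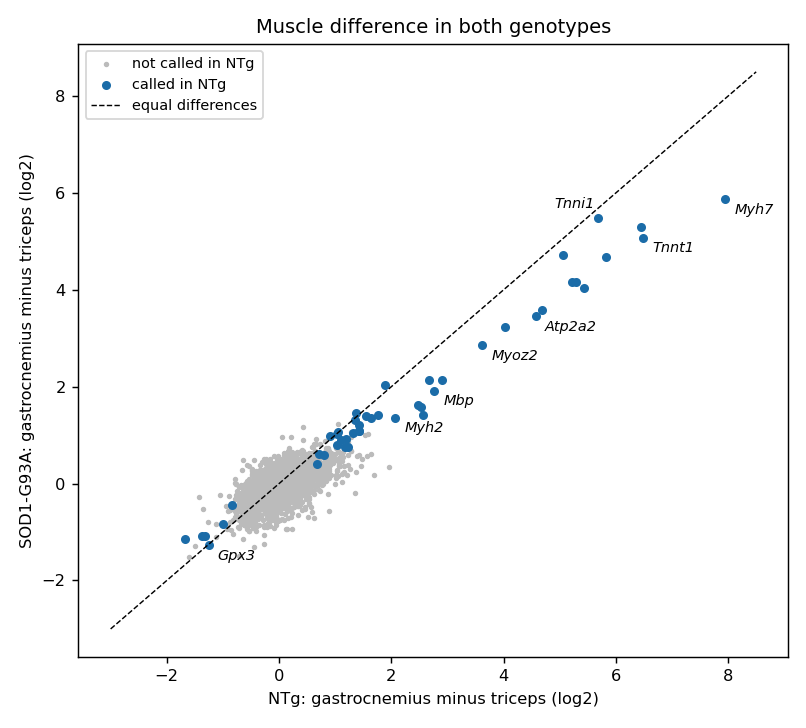
Muscle difference in SOD1-G93A mice (log2, vertical axis) against the difference in control mice (log2, horizontal axis) for 4637 tested probe sets, with those called in control mice in blue and a dashed line where both are equal. All 47 blue points have the same sign in both genotypes, and most of the higher ones lie below the dashed line.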

How the data were processed

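RNA of 8 NTg muscles (Trizol, RNeasy, biotin-labelled cRNA, per the labels' protocols) was measured on 1-colour Affymetrix arrays. The deposited values are MAS5 signals, per the submitters' processing notes; that they are on a log2 scale was read from the values (-0.77 to 14.68), and the sources used here do not give the authors' scaling or version. Trimmed means differed by at most 1.06-fold between arrays. No detection calls were used, so low signals have no stated background. limma 3.58.1 in R 4.3.3 (lmFit, eBayes with trend) was fitted to the 8 arrays with mouse as a fixed block, on the 4637 probe sets above the 40th percentile of the mean, after a test on simulated data. Same-numbered muscles come from the same mouse per the series text, and deviations of same-numbered arrays correlated at 0.136 to 0.328 in 4 of 4 mice. A gene is its brightest probe set in list counts. Platform gene symbols were matched to RefSeq; 7053 probe sets have 1 symbol, 330 several and 346 none. Genes to name were the 15 called genes per direction of largest difference (only 6 were called lower, so uncalled genes of smallest p fill that side, and the text leaves most of the uncalled list genes out), the 3 of smallest p in each list, all slow fibre, fast fibre and limb genes, Ckm, and 5 per direction between genotypes; others named (Hspb7, Lmcd1, Nnt, Acta1, Ldha, Idh2, Col1a1 and further probe sets among them) had been seen when they were picked. The comparison, the gene lists and the tests were chosen with earlier results of these data known. Alternatives concerned the block, normalization, pseudocount of 16, filter, trend, weights and arrays left out.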

Additional observations from a re-analysis of the deposited data

Results flagged for a closer look

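Within groups of 4 control arrays, 8 of 172 groups had 1 array apart from the other 3 by a gap past Dixon's 95% critical value, which chance gives in about 1 in 20 groups. Atp2a2 on its second called probe set stood high at 7.11 in triceps of mouse 3. On 1 of the 3 Myl3 probe sets, triceps of mouse 2 was low at 3.63. Gpx3 was high at 10.9 in triceps of mouse 4. Fhl1 was high at 12.87 in gastrocnemius of mouse 4. Ldhb was low at 8.66 in gastrocnemius of mouse 3 on 1 probe set and at 9.80 in mouse 2 on another. Zfp503 was low at 4.90 in gastrocnemius of mouse 1. Clu was high at 8.53 in triceps of mouse 2.

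For 3 genes every control mouse differed between the muscles in one direction and every SOD1-G93A mouse in the other. The muscle difference in NTg minus that in SOD1-G93A was 1.46 for Nras (SE 0.31), -1.14 for 1 of 3 Mrpl11 probe sets (SE 0.27) and -0.66 for Zcchc17 (SE 0.19). The interaction test in limma gave each an adjusted p of 0.998, so none passed.

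Among probe sets below the filter, which the comparison did not use, 5 had an adjusted p under 0.05 in a limma fit without the filter, all higher in gastrocnemius. They were the probe set shared by Myh7 and Myh6 at 6.44, Sln at 3.95 (adjusted p = 0.0112), another Hspb7 probe set at 2.87, a probe set annotated to the hair keratin-associated gene Krtap5-1 at 2.82 and another Mbp probe set at 2.08. Further Mbp probe sets below the filter gave 1.75 and 0.99 and did not pass in that limma fit (adjusted p = 0.0701 and 0.324).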

How the results depend on the processing

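Of the 36 called genes, 19 kept their call in each of the 14 alternatives that tested them, the slow myosin, troponin and calcium pump genes among them, and 17 lost it in at least 1. Without the replicate block, 34 probe sets were called higher and 2 lower in control mice, and 34 and 8 in SOD1-G93A mice (8 against 21 with the block); 35 of the 47 calls were kept. Fitting all 16 arrays gave 68 higher and 20 lower in control mice. Leaving out each mouse in turn gave 28 to 49 higher and 1 to 8 lower, with 1 lower without mouse 1 and 2 without mouse 4. An alternative added after the data were seen, without triceps of mouse 2 and without the block, gave 2 lower. In SOD1-G93A mice array weights gave 86 higher and 67 lower, the filter at the 60th percentile 13 lower, and leaving out each mouse 31 to 59 higher and 9 to 24 lower. The interaction gave 0 calls in every alternative. Without triceps of mice 1 and 2, signs turned for Acta1 (-0.10), Atp2a1 (-0.14), Ckm (-0.0772), Myh1 (-0.13), Myh4 (-0.0586), Myl1 (-0.0231), Pvalb (-0.20), Tnnc2 (-0.0385) and Tnni2 (-0.0419); quantile normalization turned Atp2a1 (-0.0394) and Myh1 (-0.35). The cause was not tested. With 4 mice, the median SE was 0.19, and 16 of the 47 called probe sets had 1 muscle mean below the filter level, so those folds are imprecise.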
